A study of Mus musculus with 4 samples.

Results

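The prostates of 4 mice aged 60 days, all carrying conditional Trp53 alleles (Trp53F/F) and the Cre transgene PB-Cre4, were compared as 1 group of 4 with prostate RNA pooled from 3 wild-type mice. In 2 of them, called mutant here, an R654W allele of Rb1 stood opposite a conditional allele (Rb1R654W/F). The other 2 carried 2 conditional Rb1 alleles (Rb1F/F) and are named null. These 4 mice are all 4 samples of the study, and the pool is the only control. Each array held the RNA of 1 mouse in red (Cy5) and the pool in green (Cy3), and the dyes were not swapped, so a dye effect of a probe stays in its ratio. A log2 ratio above 0 means more signal from the mouse than from the pool, and 1 log2 unit is 2-fold. The mice had a mixed C57BL/6, 129/SVJae and FVB background, while no age or strain is given for the pool. PB-Cre4 is driven by a probasin promoter that is active in prostate epithelium, so cells in which it is silent keep their conditional alleles.

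Rb1 encodes the retinoblastoma protein, which binds E2F transcription factors and holds back genes of DNA replication until a cell commits to divide. Trp53 encodes p53, which turns on genes of cell cycle arrest, DNA repair and cell death after damage. Prostate epithelium makes secretory proteins under androgen control, and the seminal vesicles, which lie against the prostate, make their own set of abundant secretory proteins.

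Of 16835 genes tested, each represented by its brightest probe, 22 had a mean ratio over the 4 mice that passed limma's test against 0 at a Benjamini-Hochberg adjusted p under 0.05. This is 0.131% of the genes tested. Lower in the mice were 20 genes (0.119%), led by Ms4a5, Naip5 and the lactoferrin gene Ltf, and 2 were higher (0.0119%), Snrpe and Mxra7. All 22 lay on 1 side of 0 in all 4 mice. So did 5277 of all genes tested (31.3%), with 2896 above 0 in every mouse (17.2%) and 2381 below (14.1%). An exact sign-flip test over 4 mice cannot go below a two-sided p of 0.125 for a single gene, so these sides are counts and not calls. The pool enters as 1 control sample, and its own spread is left out of every p-value. At an unadjusted p under 0.05, 3355 genes passed (19.9%), of which 1846 were higher (11%) and 1509 lower (8.96%). Under another scaling the direction of small ratios was not fixed: with median centring the median of all genes moved from 0.03 to 0.43, 6656 of the 16835 genes changed sign, and 2421 genes were called higher and 39 lower.

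The sign shared by all 4 mice went with the size of the mean ratio. With a mean ratio of at least 0.5 in size, 532 genes were above 0 and 371 below 0 in all 4 mice, and 345 had mixed sides. With a mean of at least 1 in size, 43 were above, 70 below and 29 mixed. Of the genes with a mean of at least 2 in size, 2 were above, 16 below and 0 mixed.

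Most called genes were dimmer than the median gene tested. Of 4 equal groups by brightness, the dimmest held 4 calls, the next 14, the third 3 and the brightest 1. The median log2 intensity was 7.55 for the called genes and 8.71 for all genes tested. Median probe GC content was 43.3% in both. It was 40% for genes above 0 in all 4 mice and 45% for those below. An effect of GC content on the ratios was not tested. In 15 of the 22, all 4 mice had a signal well above background, and 4 passed the brightness filter through the pool channel only: Pate6, Hoxb8, Zfp874a and the probe NAP030542-1. Over all 16835 genes tested, 43 passed through the pool channel only. The filter itself picks such genes for a dim mouse channel, which leans toward ratios below 0. Their place among the calls is therefore no separate result. Fewer than 4 mice were well above background for 1930, 102, 7 and 0 of the genes tested in these brightness groups, from dimmest to brightest.

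**Figure D1:**
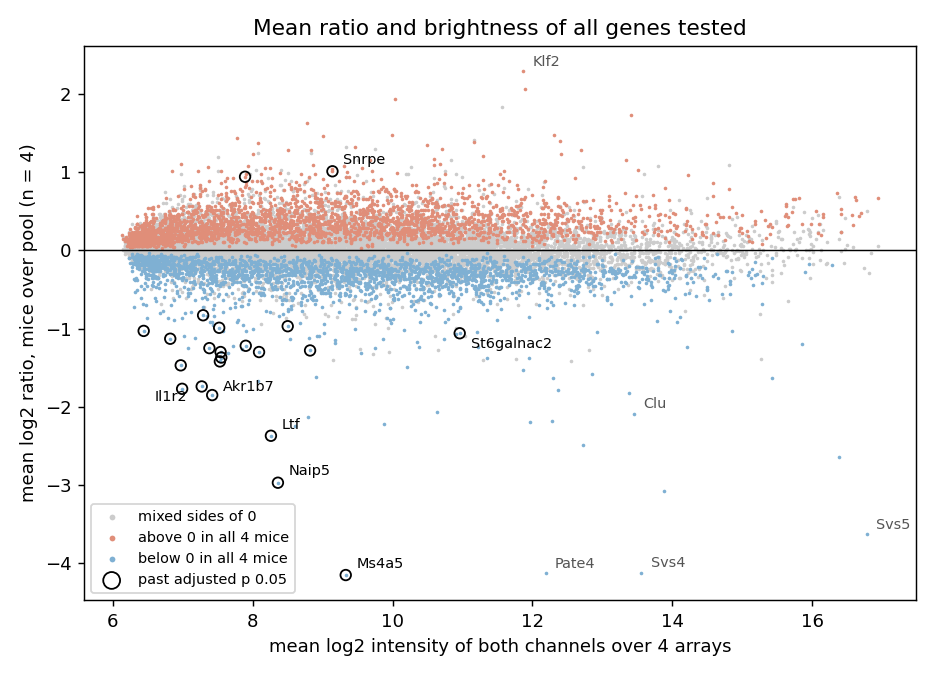
Mean log2 ratio of the 4 mice over the pool (vertical axis) against mean log2 intensity of both channels (horizontal axis) for the 16835 genes tested, coloured by whether all 4 mice lay on 1 side of 0. Black rings mark the 22 genes past adjusted p 0.05, 14 of them in the second of 4 equal groups by brightness, while secretory genes such as Svs4 and Pate4 lay as low without passing.

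The probe of the gene with the largest fall, the probe of the second, and both probes of the third are shown because these calls rest on single oligonucleotides of 60 bases. Positions are those of the array design in build mm7, where Ms4a5 was probed at chr19:10956768-10956827 and Naip5 at chr13:97285457-97285516, both on the minus strand. The Ltf probe that stood for the gene was at chr9:110738071-110738130, and the other spanned chr9:110733462-110736512, both on the plus strand.
Ms4a5 probe: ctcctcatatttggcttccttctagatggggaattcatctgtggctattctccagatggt
Naip5 probe: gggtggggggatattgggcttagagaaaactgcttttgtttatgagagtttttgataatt
Ltf probe, brightest: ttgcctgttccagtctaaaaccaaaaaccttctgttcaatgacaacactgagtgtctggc
Ltf probe, other: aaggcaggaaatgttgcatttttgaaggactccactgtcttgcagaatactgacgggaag
No letters are in capitals because no motif was searched in the probes.

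Ms4a5 encodes a membrane protein with 4 membrane-spanning stretches, of the family that includes the B cell antigen CD20. Its ratios were -4.26 and -4.43 in the mutant mice and -3.68 and -4.24 in the null mice. Every mouse lay far below the pool, with null mouse 1 the nearest to it. The mean was -4.15 ± 0.33 (SD, n = 4), 17.8-fold lower (limma, adjusted p = 0.00202). The signal was well above background in both channels on every array. No second Ms4a5 probe was measured. Of the 9 genes of the Ms4a family tested, Ms4a5 was the only one called, and the family median was 0.17. In all 4 mice 3 lay above 0 and 2 below, against 17.2% and 14.1% of all genes tested.

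Naip5 encodes a receptor that binds bacterial flagellin and starts inflammasome assembly. The mutant mice had ratios of -3.03 and -3.24 and the null mice -2.64 and -2.99. Null mouse 1 was again the nearest to the pool. The mean was -2.97 ± 0.25 (SD, n = 4), 7.86-fold lower (limma, adjusted p = 0.0026). The relatives Naip1, Naip2 and Naip6 had mean ratios of 0.05, 0.16 and 0.04, and none passed the test. The Naip genes are close copies of each other, and whether the Naip5 probe also binds their RNA was not tested.

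**Figure D2:**
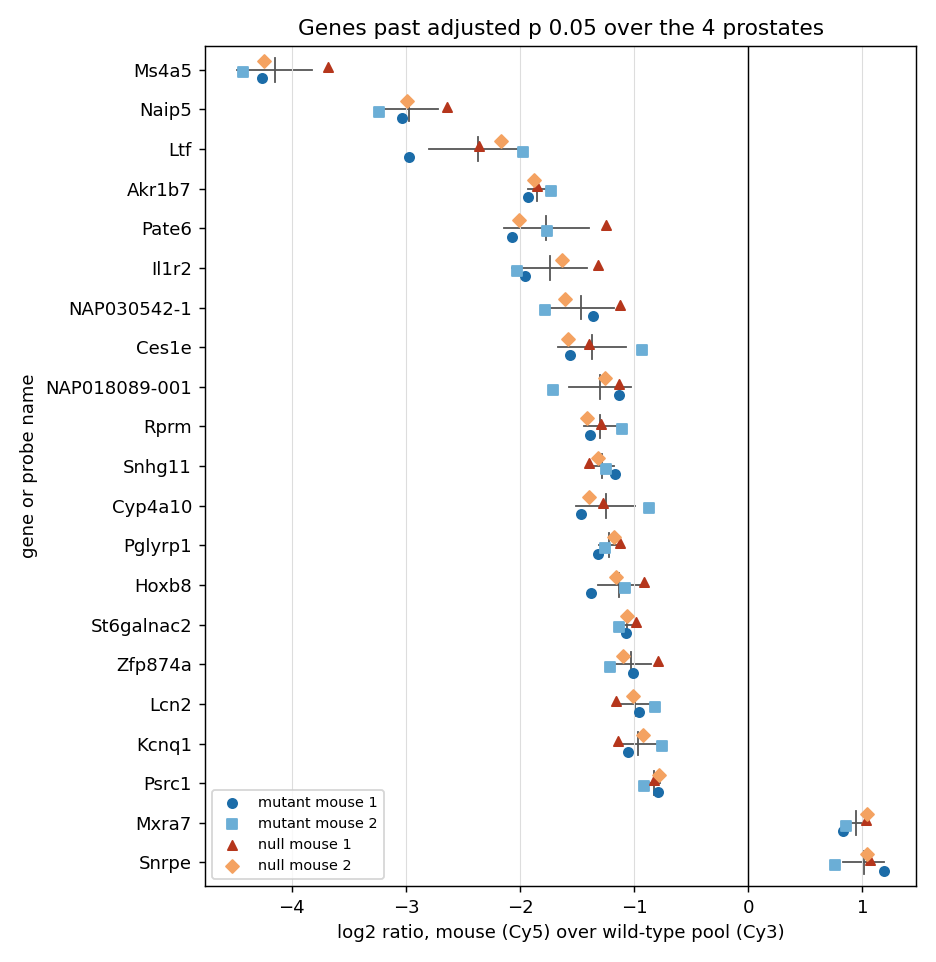
Log2 ratio of each mouse over the pool for 21 of the 22 genes past adjusted p 0.05, sorted by mean. Symbols are single mice, the upright tick is the mean and the bar is 1 SD to each side (n = 4). Every symbol of the 19 lower genes drawn lies left of 0, and those of Snrpe and Mxra7 lie right of it.

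Ltf, Pglyrp1, Lcn2 and Il1r2, genes with roles in antibacterial defence or inflammation, were among the lower calls; they are set side by side after the calls, not as a tested group. Ltf, the iron-binding lactoferrin of secretions and neutrophil granules, had ratios of -2.97 and -1.97 in the mutant mice and -2.36 and -2.17 in the null mice. Mutant mouse 1 was the lowest, and the genotypes overlapped. The mean was -2.37 ± 0.43 (SD, n = 4), 5.16-fold lower (limma, adjusted p = 0.0256), and the other Ltf probe gave -2.18. Pglyrp1, which binds bacterial cell wall peptidoglycan, had ratios of -1.32 and -1.26 (mutant) and of -1.12 and -1.18 (null). All 4 values lay close together, with a mean of -1.22 ± 0.09 (SD, n = 4; limma, adjusted p = 0.0245).

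Lcn2, a lipocalin that takes up bacterial iron carriers, had ratios of -0.96 and -0.82 (mutant) and of -1.16 and -1.01 (null). From here on, 4 values in a row are mutant mice 1 and 2 and then null mice 1 and 2. Null mouse 1 was the lowest. Its mean was -0.99 ± 0.14 (SD, n = 4; limma, adjusted p = 0.047). Il1r2, the decoy receptor for interleukin 1, was at -1.96, -2.03, -1.32 and -1.63. The mean was -1.74 ± 0.33 (SD, n = 4; limma, adjusted p = 0.0361). The difference of mutant minus null was -0.52, which did not pass limma's test (adjusted p = 0.992). A second Il1r2 probe, not well above background in any mouse, lay at -0.63 and below 0 in every mouse.

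Ltf, Pglyrp1 and Lcn2 are products of neutrophils as well as of epithelia. Of the 12 neutrophil markers listed, 11 were on the array and 3 passed the brightness filter: Lcn2, and S100a9 at 0.60 and Il1b at 0.12, both named after their values were seen. The median of these 3 ranged from -0.10 to 0.26 over the mice. The defining markers S100a8, Ly6g, Csf3r, Mpo and Elane did not enter the test. The part of neutrophils in these falls was not tested. In bulk tissue, fewer cells of a type and less RNA per cell cannot be told apart.

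Akr1b7, Pate6, Ces1e and Cyp4a10 were lower calls that code for enzymes and a secreted protein; they were put together after the calls. No gene of the prostate secretory list was called, and that list's median was -0.01. Akr1b7, an aldo-keto reductase known from the vas deferens and adrenal gland, was at -1.93, -1.73, -1.85 and -1.88. This was among the tightest spreads of the called genes, with a mean of -1.85 ± 0.08 (SD, n = 4), 3.61-fold lower (limma, adjusted p = 0.00353). Pate6, from a family of small secreted proteins of the prostate and testis, was at -2.07, -1.76, -1.25 and -2.01. Its mean was -1.77 ± 0.37 (SD, n = 4; limma, adjusted p = 0.0433), and its mouse signal was well above background on 2 of 4 arrays. It entered the test through the pool channel only.

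Ces1e, a carboxylesterase, was at -1.56, -0.93, -1.40 and -1.58, with mutant mouse 2 the nearest to 0. Its mean was -1.37 ± 0.30 (SD, n = 4; limma, adjusted p = 0.0471). Cyp4a10, a fatty acid hydroxylase, was at -1.47, -0.87, -1.27 and -1.40, again with mutant mouse 2 the nearest to 0. Its mean was -1.25 ± 0.26 (SD, n = 4; limma, adjusted p = 0.0471). Further Cyp4a10 probes, too dim to pass the brightness filter, gave 0.01 and -0.12. Neighbours of both genes, chosen after their values were seen, had means as low without passing: Ces1d was at -1.62 (adjusted p = 0.0714) and Cyp4a12a at -2.25 (adjusted p = 0.0765). The relatives Ces1f and Cyp4a31 were at 0.28 and 0.16. Probes of such gene copies can share RNA, which was not tested.

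Seminal vesicle secretory genes had large ratios below 0 that varied between mice and did not pass. Of the 12 genes listed, 8 were tested, 0 passed, 5 lay below 0 in all 4 mice and 1 above. Over all genes tested, 14.1% lay below and 17.2% above. The list median was -3.07 in mutant mouse 1, -0.27 in mutant mouse 2, -2.91 in null mouse 1 and -2.41 in null mouse 2, so mutant mouse 2 stood near the pool and the others far below it. The brightest members, Svs5 and Svs2, had means of -3.63 ± 2.53 and -3.07 ± 1.54 (SD, n = 4). Svs5 was at -4.69, -0.10, -5.99 and -3.72. Svs4, chosen after its values were seen, was low in every mouse at -4.14, -2.50, -5.30 and -4.55, and its mean of -4.12 ± 1.18 (SD, n = 4) missed the threshold (adjusted p = 0.0539). Pate4, also chosen after its values were seen, had a mean of -4.13 ± 2.47 and Ceacam10 a mean of 1.43 ± 1.18 (SD, n = 4).

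The part of seminal vesicle RNA in the called genes was not tested as such. In mutant mouse 2, where the seminal vesicle median was -0.27, Ltf was at -1.97, Akr1b7 at -1.73, Pate6 at -1.76 and Ms4a5 at -4.43. In the same mouse Ces1e was at -0.93, Cyp4a10 at -0.87 and Kcnq1 at -0.76. Ltf, Akr1b7, Rprm, Lcn2, Ces1e, Cyp4a10 and Kcnq1 were each nearest to 0 in this mouse, while other lower calls such as Pate6 and Ms4a5 were not. The seminal vesicle gene Svs4 was at -2.50 there, so the list median does not hold for each member. Markers of the epididymis and vas deferens, listed after the values were seen, passed the filter for 5 of 20 genes. Their median ranged from -0.61 to 0.08 over the mice, and Akr1b7 was the 1 called.

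Rprm and Psrc1 have ties to p53 and to cell division. Rprm encodes Reprimo, known as a p53-induced mediator of arrest before mitosis. It was at -1.39, -1.11, -1.29 and -1.41. The mean was -1.30 ± 0.14 (SD, n = 4; limma, adjusted p = 0.0245), and a second probe gave -1.18. Psrc1, which encodes a microtubule-binding protein of the spindle and was chosen after its values were seen, was at -0.79, -0.91, -0.83 and -0.78. Its mean was -0.83 ± 0.06 (SD, n = 4; limma, adjusted p = 0.0471), with 2 further probes at -0.46 and -0.35.

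The other known targets of p53 were measured as a list that held neither gene. Of 30 tested, 0 passed, 8 lay below 0 in all 4 mice and 2 above. Over all genes tested, 14.1% lay below and 17.2% above. The list median was -0.08 against 0.03 over all genes tested. The brightest members, Perp and Ei24, which act in p53-dependent cell death, had means of -0.24 ± 0.22 and -0.53 ± 0.26 (SD, n = 4). Ccng1, a cyclin induced by p53, and Xpc, a DNA damage sensor, were at -0.75 ± 0.59 and -0.46 ± 0.16 (SD, n = 4) and were named after their values were seen. Perp, Ei24 and Xpc were above 0 under median centring. There the list median was 0.41, against 0.43 over all genes tested, and the count below 0 in all 4 mice was 0. Cdkn1a, the classic arrest gene under p53, was at -0.26, -0.75, 1.11 and -0.71, with null mouse 1 alone above 0.

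Rb1 and Trp53, the targeted genes, did not pass the test. Which exons the conditional alleles lose is not given in the sources used here, so their probes do not check the labels. Rb1, with 1 probe past the filter, was at -0.65, -0.24, 0.09 and -0.87. Its mean was -0.42 ± 0.43 (SD, n = 4; limma, adjusted p = 0.254), and 0.16 under median centring. Trp53 was at 0.14, 0.12, 0.53 and 0.08, with a mean of 0.22 ± 0.21 (SD, n = 4; limma, adjusted p = 0.317). A dimmer Trp53 probe gave -0.20.

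The remaining lower calls were spread over transport, sugar and regulatory genes. Kcnq1, a potassium channel named after its values were seen, had a mean of -0.97 ± 0.16 (SD, n = 4; limma, adjusted p = 0.0492). Another probe under the same name, at chr7:139684939-139684998, gave 0.05. It was on the minus strand, while the probe that gave the call was on the plus strand. Whether it reads Kcnq1 RNA was not tested.

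St6galnac2, which adds sialic acid to O-linked sugar chains, was at -1.07, -1.13, -0.98 and -1.06. It had the highest mean intensity of the called genes, and its mean was -1.06 ± 0.06 (SD, n = 4; limma, adjusted p = 0.0274). Its other probes gave -0.63 and -0.16, so the size depended on the probe while the sign did not.

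Snhg11, a long noncoding RNA that hosts small nucleolar RNAs, was at -1.17, -1.25, -1.40 and -1.32. Its mean was -1.28 ± 0.10 (SD, n = 4; limma, adjusted p = 0.0245), and its 3 further probes gave -1.43, -0.72 and -0.60. With 4 probes below 0 in every mouse it was the call with the most separate readings. Hoxb8, a homeobox transcription factor, had a mean of -1.13 ± 0.19 (SD, n = 4; limma, adjusted p = 0.047), with mouse signal well above background on 2 of 4 arrays. Another Hoxb8 probe, too dim to pass the brightness filter, gave 0.03. Zfp874a, a zinc finger gene, was not well above background in any mouse, so only a bound holds: it was at least 1.92-fold lower (limma, adjusted p = 0.0471), the bright channel set on each array against the dimmest signal that counts as well above background. Among the 22 calls, 2 probes carry no gene symbol, NAP030542-1 at -1.47 and NAP018089-001 at -1.30, and are named after their values were seen. The first entered through the pool channel only and was well above background in 1 mouse.

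The 2 higher calls were near 2-fold. Snrpe, a core Sm protein of the spliceosome, was at 1.19, 0.76, 1.07 and 1.04. The mean was 1.01 ± 0.18 (SD, n = 4), 2.02-fold higher (limma, adjusted p = 0.0492). Of the 12 genes of the Snrp family tested, 8 lay above 0 in all 4 mice and 1 below, against 17.2% and 14.1% of all genes tested. The family median was 0.34. Over the scalings run it went from 0.34 to 1.06, while the median of all genes went from 0.03 to 0.43. Snrpd1, another Sm protein chosen after its values were seen, had a mean of 0.91 ± 0.22 (SD, n = 4; adjusted p = 0.0765).

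Mxra7, a gene named for matrix remodelling, was at 0.83, 0.86, 1.03 and 1.04, with a mean of 0.94 ± 0.11 (SD, n = 4; limma, adjusted p = 0.047). Its 2 probes are shown because they disagreed. The brighter, at chr11:116916942-116917001, gave the call. The other, at chr11:116913416-116913475, gave -0.06, 0.21, -0.14 and 0.13, a mean of 0.04 with mice on both sides of 0.
Mxra7 probe, brightest: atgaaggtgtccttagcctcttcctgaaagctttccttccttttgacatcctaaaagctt
Mxra7 probe, other: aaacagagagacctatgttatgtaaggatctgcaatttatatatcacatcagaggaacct
Mxra7 and St6galnac2 were the closest pair of called genes, 131 kb apart on chromosome 11, and they moved in opposite directions. The called probe NAP030542-1 lay 1660 kb from St6galnac2 and 1790 kb from Mxra7.

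Over all called genes, 8 had 12 further probes past the brightness filter, and 10 of these lay on the gene's side of 0 in all 4 mice. The exceptions were those of Mxra7 and Kcnq1, and the latter lay on the strand opposite to the Kcnq1 probe that gave the call. Chromosome 11, which holds Trp53, had 4 of the 22 calls among 1384 genes tested there, 8.22% of all genes tested. Within 10 megabases of the Trp53 probe 340 genes were tested, 0 were called and 31.2% lay on 1 side in all 4 mice. Around the Rb1 probe on chromosome 14 the numbers were 132, 0 and 28.8%. Against 31.3% over all genes, neither neighbourhood stood out.

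The genotypes were not told apart at these genes. Between mutant and null, 0 of 16835 genes passed limma's test at an adjusted p under 0.05, where the smallest was 0.992, and 332 had an unadjusted p under 0.05. Among the 22 called genes the largest difference was the 0.52 of Il1r2. A p that misses the threshold does not show that the genotypes were alike. When null mouse 2 was left out, 157 genes passed; null mouse 1 then stands alone for its genotype and is assumed to vary like the mutant mice.

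G1/S and DNA replication genes did not pass, and more of them lay above 0 than below 0 in all 4 mice. Of the 50 genes of the G1/S and DNA replication list tested, 0 were called, 17 lay above 0 in all 4 mice and 2 below. The shares of all genes tested were 17.2% above and 14.1% below. Under median centring 10 of the 50 were called higher, 16 lay above 0 in all 4 mice and 0 below. Over all 16835 genes that scaling called 2421 higher, with 5710 above 0 in all 4 mice and 675 below. The 16 of 50 above 0 are thus a share like that of all genes under that scaling. The list median there was 0.79, against 0.43 over all genes tested. With Agilent's processed signals the list median was 0.4, against 0.15. Under the main scaling the list median was 0.35, 0.34, -0.09 and 0.43, with null mouse 1 the lowest. The 2 below were Rpa1, a single-strand DNA binding subunit, at -0.38 ± 0.27 and Rnaseh2a, a ribonuclease subunit named after its values were seen, at -0.43 ± 0.29 (SD, n = 4). Both were above 0 under median centring, at 0.36 and 0.14. Pcna, the sliding clamp of DNA polymerase, was at 0.84, 0.72, 0.65 and 0.79, a mean of 0.75 ± 0.08 (SD, n = 4) just outside the threshold (limma, adjusted p = 0.0628). All 4 mice were above 0, with null mouse 1 the lowest. Ccne1, which encodes cyclin E, and Pola1, the catalytic subunit of DNA polymerase alpha, both chosen after their values were seen, had means of 0.81 ± 0.17 and 0.62 ± 0.13 (SD, n = 4; adjusted p = 0.0765 and 0.0993).

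Mcm6 and Mcm3, subunits of the replication helicase, had higher values in 3 mice than in null mouse 1. Mcm6 was at 1.30, 1.73, 0.41 and 1.70, and its mean was 1.29 ± 0.62 (SD, n = 4; adjusted p = 0.106). Mcm3 was at 1.43, 1.37, 0.20 and 1.63, and its mean was 1.15 ± 0.65 (SD, n = 4; adjusted p = 0.123). The other Mcm3 probe gave 0.42, 0.76, -0.14 and 0.89, a mean of 0.48 with null mouse 1 below 0. E2f3, which encodes an E2F factor, had a mean of 1.00 ± 0.38 (SD, n = 4; adjusted p = 0.0993), but 2 dimmer probes gave 0.10 and 0.13. Of 30 genes of G2/M and mitosis tested, 0 were called. In all 4 mice 1 lay above 0 and 9 below, against 17.2% and 14.1% of all genes tested. The median of the G2/M genes was -0.09, and 0.06 under median centring, where that of all genes tested was 0.43.

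Promoters of the replication genes were searched for the E2F site written TTTCGCGC, TTTGGCGC, TTTCCCGC or TTTGCCGC on either strand, in the 300 bases around each start in RefSeq, build GRCm38.p6. A promoter was given for 40 of the 50 genes, and 15 of them (37.5%) held a site. Over all genes tested with a promoter it was 480 of 11094 (4.33%), and over genes above 0 in all 4 mice 4.67%. Both MCM promoters are printed with their matches in capitals, from chr1:128359656-128359955 and chr1:20820263-20820562 on the minus strand. Mcm6 had 3 matches, of which 1 pair overlaps, and Mcm3 had 2.
Mcm6 promoter: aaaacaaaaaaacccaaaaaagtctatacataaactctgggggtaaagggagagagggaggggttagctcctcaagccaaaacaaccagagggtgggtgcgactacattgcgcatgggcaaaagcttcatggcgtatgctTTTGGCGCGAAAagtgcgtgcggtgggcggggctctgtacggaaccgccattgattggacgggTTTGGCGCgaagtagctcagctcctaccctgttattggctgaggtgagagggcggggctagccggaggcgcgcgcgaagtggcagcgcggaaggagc
Mcm3 promoter: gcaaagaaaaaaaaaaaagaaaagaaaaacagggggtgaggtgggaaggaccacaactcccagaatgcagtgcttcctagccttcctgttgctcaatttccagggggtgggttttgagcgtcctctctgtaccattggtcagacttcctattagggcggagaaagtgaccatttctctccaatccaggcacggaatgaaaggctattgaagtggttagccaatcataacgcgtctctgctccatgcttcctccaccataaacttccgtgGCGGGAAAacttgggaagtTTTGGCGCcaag
A match describes the letters only, and the Pcna promoter held none. Of the 16 called genes with a promoter, 0 held a match.

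Of 41 ribosomal protein genes tested, 0 passed, and their median was 0.24. In all 4 mice 20 lay above 0 and 4 below, against 17.2% and 14.1% of all genes tested. The count of called ribosomal protein genes depended on the scaling. Under median centring, which called 2421 of 16835 genes higher, 33 of the ribosomal protein genes were called higher. There 34 of them lay above 0 in all 4 mice and 0 below, against 5710 and 675 of all genes. With Agilent's processed signals 0 of the ribosomal protein genes were called. Rplp1, a stalk protein of the large subunit and the brightest of them, was at 0.93, 0.46, 0.44 and 0.85, and Rps23, a small subunit protein, at 0.91, 0.38, 0.23 and 0.43. All 4 mice were above 0 for both. Rps9, named after its values were seen, was below 0 in every mouse at -0.30, -1.01, -0.52 and -0.32, and at 0.39 under median centring. Ribosomal protein genes have many near-identical copies whose RNA these probes may share. The list median stayed above the median of all genes under each scaling run, at 0.34 with Agilent's processed signals and 1.26 with median centring.

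Other genes above 0 in every mouse with a mean of at least 1 did not pass. Klf2, a transcription factor of endothelium and lymphocytes, was at 3.79, 1.95, 1.06 and 2.35 (mean 2.29 ± 1.14, SD, n = 4; adjusted p = 0.106), and its other probe gave 0.24. Lars2, the mitochondrial leucyl-tRNA synthetase, was at 3.70, 1.11, 1.38 and 1.57, with a mean of 1.94 ± 1.19 (SD, n = 4; adjusted p = 0.126). Mutant mouse 1 was far above the rest for both. The transcription factor genes Tfap2e and Cebpd had means of 1.32 ± 0.53 and 1.20 ± 0.50, and Tfap2e's other probe gave 0.00.

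Angptl4, an inhibitor of lipoprotein lipase, was at 1.17 ± 0.65 and Ren2, a renin gene, at 1.48 ± 0.95. Ptprg, a receptor phosphatase, was at 1.05 ± 0.47, with another probe at 0.26. Rgs5, a pericyte regulator of G protein signalling, was at 1.04 ± 0.48, with another probe at -0.06 and mice on both sides of 0. Aurkc, a kinase of meiosis, was at 1.08 ± 0.59 and the macrophage protease gene Ctss at 1.09 ± 0.64 (SD, n = 4). The adjusted p of these 10 genes and of Mcm3, Mcm6 and E2f3 ran from 0.0993 to 0.13.

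Clu, which encodes the secreted chaperone clusterin, was at -2.74, -1.35, -2.33 and -1.91, a mean of -2.09 ± 0.60 (SD, n = 4) that missed the threshold (adjusted p = 0.0614). Pbsn, the androgen-regulated secretory gene whose promoter drives the Cre, was at 1.17, 0.91, 0.34 and -0.21. It was well above background in both channels on every array, so this prostate marker was present in mice and pool alike. The prostate secretory list had a median of 0.11, 0.17, -0.52 and 0.08, with null mouse 1 the lowest. Tgm4, a transglutaminase of prostate secretion, had a mean of 0.05 ± 0.26 (SD, n = 4). Luminal epithelial markers, 21 tested, had a median between -0.16 and 0.13, and the luminal keratin gene Krt18 a mean of 0.23 ± 0.45. The basal keratin gene Krt5 was at -0.27 ± 0.15 and the smooth muscle gene Tpm2 at -0.65 ± 0.63 (SD, n = 4). Both were above 0 under median centring, at 0.50 and 0.40. Neither gene stands for its list. The 16 basal markers tested had a median of 0.06, with 2 above 0 and 1 below 0 in all 4 mice. The 16 smooth muscle markers tested had a median of -0.16, with 1 above and 0 below. Over all genes tested, 17.2% lay above and 14.1% below 0 in all 4 mice.

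**Figure D3:**
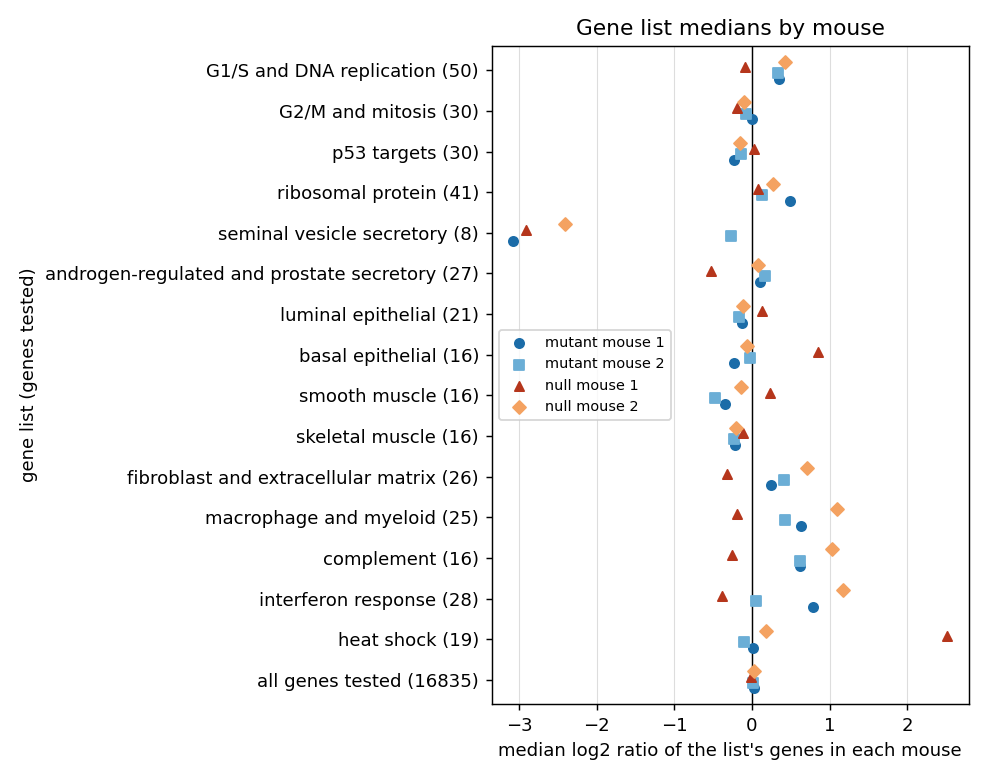
Median log2 ratio of each gene list in each mouse, with the number of genes tested in brackets and all genes tested as the last line. Null mouse 1 lies apart for heat shock genes at 2.51. It lies below 0, with the other 3 mice above 0, for the replication, prostate secretory, fibroblast, macrophage, complement and interferon lists. The same holds by little for all genes tested. Mutant mouse 2 lies apart for seminal vesicle genes at -0.27.

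Null mouse 1 stood apart from the other 3, and all 4 arrays came from the same slide. Its median red signal was 20.5, against 55.1 to 90.1 in the others, and its heat shock median was 2.51, against -0.10 to 0.18. The macrophage, mast cell, complement, chemokine, interferon, MHC class II, fibroblast, adipocyte and erythroid lists had medians above 0 in the other 3 mice and below 0 in this one. So did the G1/S and DNA replication, prostate secretory, oxidative phosphorylation, xenobiotic and polyamine lists. The median of all genes tested did too, by little, at 0.03, 0.02, -0.01 and 0.03. Other lists did not follow this pattern, such as T and NK lymphocyte, B lymphocyte, endothelial and smooth muscle genes. The macrophage and myeloid median was 0.63, 0.43, -0.19 and 1.1. The interferon response median was 0.79, 0.05, -0.38 and 1.17. Within the interferon list 8 of 28 genes lay above 0 in all 4 mice and 0 below, against 17.2% and 14.1% of all genes tested. The brightest of these 8, Ifi27, was at 1.02, 0.52, 0.44 and 1.70. Oasl2, an antiviral gene chosen after its values were seen, was at 1.92, 0.76, 0.29 and 2.87.

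Without null mouse 1 the number of calls rose from 22 to 474, with 320 genes higher (1.9%) and 154 lower (0.915%). All 22 genes called with 4 mice were among them. Without mutant mouse 1 or null mouse 2 the number was 0, with 2316 and 2268 genes at an unadjusted p under 0.05, and without mutant mouse 2 it was 9, all lower, 3 of them among the 22.

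The genes that passed without null mouse 1 were read in that mouse, whose values the 3-mouse test did not use. Of the 154 lower genes, 130 (84.4%) were below 0 in null mouse 1, against 50.8% of all genes tested, with a median of -0.62 there and -0.76 in the 3. Of the 320 higher genes, 149 (46.6%) were above 0 in null mouse 1, against 49.2% of all genes tested, with a median of -0.04 there and 0.75 in the 3. The 4 mice share the pool, so a pool value shifts all of them the same way and the shares of all genes are no baseline for these. Among all genes below 0 in the other 3 mice, 2381 of 3602 (66.1%) were below 0 in null mouse 1 too. Among those above 0 in the other 3, it was 2896 of 4926 (58.8%). These shares are descriptions, with no test.

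**Figure D4:**
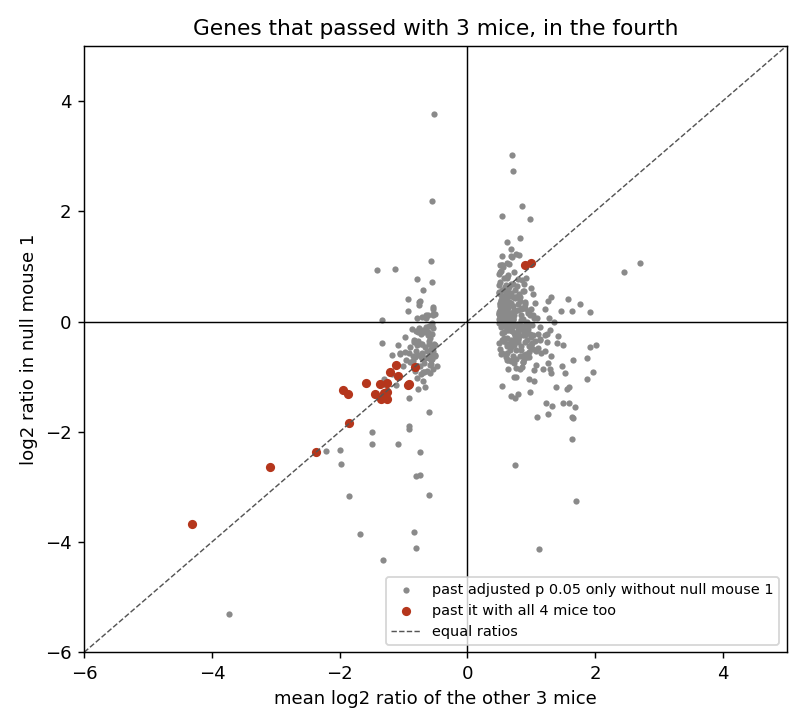
Log2 ratio in null mouse 1 (vertical axis) against the mean of the other 3 mice (horizontal axis) for the 474 genes that passed adjusted p 0.05 without null mouse 1, with the 22 that passed with all 4 mice in red. Genes lower in the 3 mice are mostly below 0 in null mouse 1, while those higher spread around 0.

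Of all genes tested, 1.9% were called higher in the 3-mouse test. These included 13 of the 50 replication genes, 9 of 25 macrophage and myeloid genes and 9 of 16 complement genes. Also among them were 8 of 26 fibroblast and matrix genes, 4 of 12 adipocyte genes and 4 of 19 chemokine genes. Ribosomal protein genes gave 4 of 41, mast cell genes 3 of 8, erythroid genes 2 of 5 and interferon response genes 0 of 28. C1qa and C1qb count in both the macrophage and complement lists, and Cfd in both the complement and adipocyte lists, so these counts overlap. Lyz2, the macrophage lysozyme, was at 1.58, 1.25 and 1.86 in the 3 mice of this test and -1.22 in null mouse 1. Its other probe had a mean of 0.60 over all 4. C3, the central complement component, was at 1.39, 1.59 and 1.97, and -1.75 in null mouse 1. Both were chosen after their values were seen. Among lower genes, 3 of 16 smooth muscle genes passed, against 0.915% of all genes tested. Of the 30 p53 targets, 0 passed in either direction.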

How the data were processed

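RNA from 4 prostates and 1 pool of 3 wild-type prostates was measured on 4 two-colour Agilent arrays. The deposited scanner files give spot brightness as intensity, per the file headers. The headers name Agilent Feature Extraction 9.5.1.1 and the submitters' processing notes name version 8.5. The deposited mean signals and background medians were corrected with normexp (offset 50). Loess normalisation within each array gave log2 ratios (R 4.3.3, limma 3.58.1). Of 43379 spots that were not controls, 0 were saturated. Control spots had weight 0 and outlier-flagged spots were left out. Probes were kept if both mice of a genotype, or the pool on all 4 arrays, gave a signal well above background. This left 24925 of 41174 probes and 16835 genes, each by its brightest probe. Names came from the accession for 22951 probes, a symbol for 6659, an older symbol for 3109 and the file for 8455.

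Ratios of the 4 mice were fitted with 1 mean by lmFit and eBayes and tested against 0 (two-sided), with Benjamini-Hochberg adjustment over all genes. The fit was run on simulated data with independent errors, where it recovered 6 of 50 genes set at 1.5-fold and 39 of 50 at 2-fold. These data had no shared pool, no dye effect and no mouse that stood apart, so the run does not check the fit for these. With 4 arrays, their number limits the precision. The mice of a group are the replicates. Named genes were the 15 lowest and 15 highest means among called genes with a symbol, filled where fewer passed by the smallest p among means of at least 1 in size on 1 side in all 4 mice, up to 4 called members of each list (if none, its 2 of highest intensity), and Rb1, Trp53, Cdkn1a, Pcna, Clu, Pbsn, Naip5 and Ms4a5. Of its 102 genes, 53 are reported; 48 from lists described by counts or not described are left out, and 1 called gene is not reported here. Members, lists and the rule were chosen with earlier results of these data known. The alternatives run are in the closing section. The authors' value table was not used here. Same-numbered mice did not deviate together (correlation -0.00783 across genes), so the replicate numbers pair no samples.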

Additional observations from a re-analysis of the deposited data

Results flagged for a closer look

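In 6 of the 102 genes and list medians checked, 1 mouse stood apart from the other 3 by Dixon's criterion, which flags about 1 in 20 groups of values by chance. In each it was null mouse 1. Its Trp53 ratio was 0.53, against 0.08 to 0.14 in the other mice. Trp53inp1, a p53 target chosen after its values were seen, was at 2.69 there and at 0.09 to 0.41 in the others. C3 was at -1.75, against 1.39 to 1.97. The median of the prostate secretory list was -0.52, against 0.08 to 0.17. The heat shock median was 2.51, against -0.10 to 0.18, and the immediate early median was 0.34, against -0.01 to 0.04. The called genes checked were not among these.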

How the results depend on the processing

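Of the 21 called genes reported by name, 0 changed sign under any setting run. Ms4a5 and Naip5 passed under 11 of 13 settings each, failing without mutant mouse 1 and without null mouse 2, and Akr1b7 passed under 9 of 12. The counts moved with the processing, and the cause was not tested. Agilent's processed signals gave 0 higher and 6 lower, median centring 2421 and 39 (98.4% higher, against 9.09%), no brightness filter 0 and 8, both channels well above background on all arrays 0 and 8, array weights 670 and 440, and an intensity trend 4 and 38. A term for each genotype gave 0 and 3. With the replicate block the counts were 0 higher and 3 lower, the same 3 genes, Ms4a5, Naip5 and Akr1b7. Leaving out 1 mouse gave 0 to 320 higher, 0 to 154 lower, 6690 to 8528 genes on 1 side in all remaining mice, and 0 to 157 genes different between mutant and null, a result whose alternatives were chosen after seeing the data. Median centring turned the sign of 6656 of 16835 genes and of 31 of the 102 genes the naming rule took, array weights of 12 and the processed signals of 7. Reported genes turned by median centring, none of them called, were Cdkn1a at 0.07, Ei24 at 0.26, Krt5 at 0.50, Perp at 0.61, Rb1 at 0.16, Rnaseh2a at 0.14, Rpa1 at 0.36, Rps9 at 0.39, Tpm2 at 0.40 and Xpc at 0.15. Array weights put Tgm4 at 0.00. Leaving out 1 mouse took Cdkn1a from -0.57 to 0.05 and Tgm4 from -0.07 to 0.14. Median centring moved the median of all genes from 0.03 to 0.43 and the processed signals moved it to 0.15. Treating every probe as a row, chosen after seeing the data, gave 2 and 17. The dyes were not swapped, the pool has no spread of its own, and dim probes such as Zfp874a give only bounds.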
